A study of Drosophila melanogaster with 9 samples.

Results

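The average RNA shift of *pri* and *ken* mutant embryos against control embryos was measured as 1 contrast. For each of 15228 genes of 15228 in the table, the mean of the 3 control samples was subtracted from the average of the *pri* mean and the *ken* mean, on the log2 scale, in a fit of all 9 samples. The mutants were *pri S18.1* mutants (3 samples) and *ken1/Df(2R)BSC660* mutants (3 samples), set against 3 control samples, whose labels give the genotype WT and whose titles begin with w. A sample held 200 whole embryos of stage 16, and mutants were picked by hand with a GFP balancer. The *ken* genotype pairs an allele, whose stock the paper lists with marker alleles of *cn* and *ry*, with a deletion that removes neighbouring genes. The control embryos are not stated to share the genetic background of either mutant. A difference that both mutants carry because of their stocks and one that follows from the loss of *pri* or *ken* therefore cannot be told apart in this contrast.

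*pri* (polished rice) encodes small peptides that relay the ecdysone pulse to the embryonic epidermis, where they trigger the processing of the transcription factor Shavenbaby and so the formation of trichomes, the actin-rich hairs of the larva. *ken* (ken and barbie) encodes a BTB zinc finger repressor. Late in embryogenesis, the epidermis secretes a cuticle of chitin and cuticle proteins, many of them of the Rebers-Riddiford family, which is named after its chitin binding motif. The gut and the fat body of the same embryos prepare for feeding, with digestive enzymes and with cytochrome P450, glutathione transferase and UDP-glycosyltransferase enzymes that modify hormones, lipids and toxins.

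Depth was 21048610 to 28859395 counts per sample (median 23036142). Of 22 cell type markers found in the table, which cover muscle, neurons, glia, hemocytes, fat body, midgut, trachea, germ cells, salivary gland and epidermis, 1 passed in the mean contrast (*vas*, higher). *Sgs3* and *Lsp2*, markers of the later salivary gland and fat body, were near 0 in each genotype. *pri* sample 1 stood apart across the transcriptome. On the first principal component, the axis of largest variation (32.8%), it lay at −68.12, against −15.85 and −21.76 for the other *pri* samples. The *ken* and control samples lay at 6.34 to 29.36. *pri* sample 1 also stood apart in its digestive protease genes, whose sum over 29 genes was 27791, 5719 and 7260.2 normalized counts in *pri*, 11268, 4572 and 8561 in *ken*, against 10251, 6575 and 10652 in control embryos. The paper describes the samples of a genotype as independent. P-values rest on a spread between samples of the same genotype that was estimated over all 9 samples together. Some same-numbered samples of different genotypes deviated alike from their group means, as given with the processing. The main fit has genotype as its only factor and leaves this pairing out. RNA of whole embryos cannot tell fewer cells of a type from less RNA per cell.

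In the mean of both mutants, 356 genes were higher (2.34% of those tested) and 519 were lower (3.41%) than in control embryos at an adjusted p under 0.05, and 2988 genes (19.6%) had an unadjusted p under 0.05. Of the 356 higher and 519 lower genes, 117 and 142 passed in the same direction in each mutant on its own, while 231 and 341 passed in 1 mutant only and 8 and 36 in neither. The median size of the change was 0.79 on the log2 scale among higher genes and 1.06 among lower genes. A change beyond 1 in size on the log2 scale was fitted for 155 higher and 276 lower genes, and a change beyond 2 for 67 and 115. Among higher genes, 282 had all 6 mutant samples above all 3 control samples, which 5.01% of all genes did. Among lower genes, 368 had them below, which 4.98% of all genes did. The counts depended on having 3 control samples. Without control sample 1, 2 or 3 in turn, 153, 157 and 130 genes were higher and 238, 238 and 245 were lower. Without *ken* sample 3, 218 were higher. Of the 875 genes called in either direction (5.75%), 277 passed without each of the 9 samples in turn.

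Whether both mutants moved alike was read from the difference of *pri* minus *ken*. The higher and lower genes counted here were picked by the contrast with control. The difference itself uses no control sample, but its interval and p-value rest on a spread estimated over all 9 samples. Its 95% interval lay within −1 to 1 on the log2 scale for 198 of the 356 higher genes and 208 of the 519 lower genes, and for 8348 of all genes. These shares were 55.6% and 40.1%, against 54.8% of all genes. They are not matched for level. At least 50 normalized counts were averaged by 294 of the 356 higher and 380 of the 519 lower genes, against 9588 of all genes. Of the 21 higher and 52 lower genes that averaged under 10, 1 had its interval within the bounds. The shares therefore do not tell whether likeness was more or less frequent than overall. The mutants differed from each other, at an adjusted p under 0.05, for 130 higher genes (83 further from control in *pri*, 47 in *ken*) and for 182 lower genes (87 further in *pri*, 95 in *ken*), while 8.12% of all genes differed (4.03% higher and 4.09% lower in *pri* than in *ken*). Both held together for 30 higher and 36 lower genes, which differed by an amount within those bounds. Neither held for 58 higher and 165 lower genes, whose likeness these data do not settle. In 10 higher and 36 lower genes that differed, the mutants lay on opposite sides of control, so that 1 mutant alone set the direction of the mean. Without control sample 1, 2 or 3, 171, 166 and 135 genes were within the bounds and 151, 153 and 136 differed. Without *pri* sample 3 or *ken* sample 3, 254 and 236 were within the bounds and 185 and 178 differed, and without *pri* sample 2, 256 were within. Each mutant was also set against the same control samples. In *pri*, 3.68% of all genes were higher and 3.83% lower (7.51% in either direction), and in *ken*, 2.21% and 2.81% (5.02%). Sample numbers were also fitted as a block over all 9 samples, including *pri* and control, whose same-numbered samples did not all correlate. With the block, 1665 genes passed in *pri* in place of 1144, and 1210 in *ken* in place of 765. Over all genes, the mutants then differed for 1751 in place of 1237. They differed for 149 of the 356 higher and 208 of the 519 lower genes. Of the 356 genes that were higher in the mean, 271 passed in *pri* and 194 in *ken*, and of the 519 lower genes 321 and 304.

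**Figure D1:**
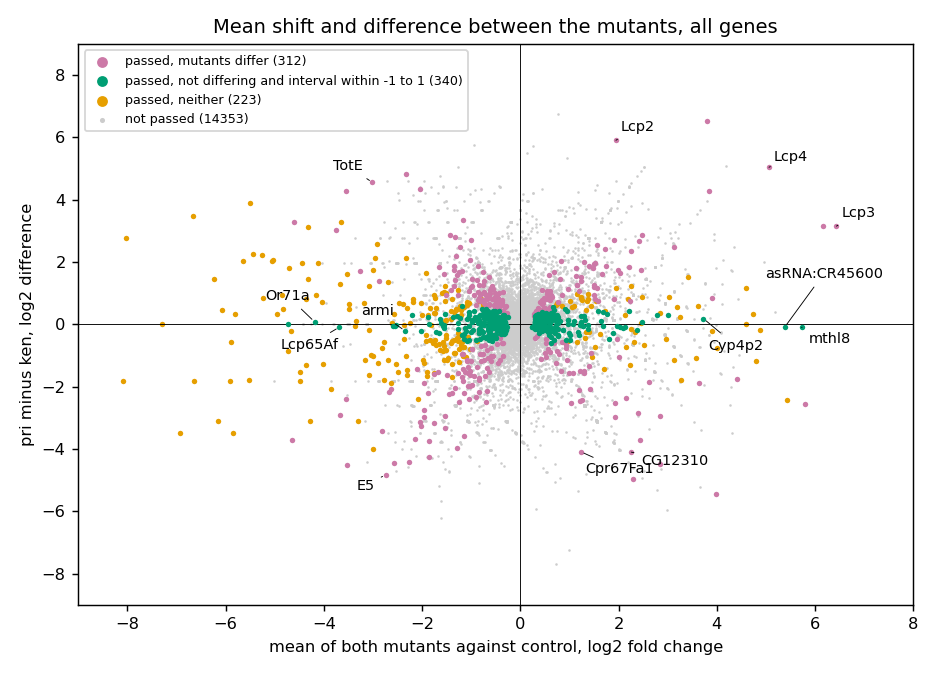
Every gene is a point, with its log2 fold change in the mean of both mutants against control on the x axis and its log2 difference of *pri* minus *ken* on the y axis. Coloured points passed in the mean contrast (875 genes). The mutants differed for 312 of them, 340 did not differ and had a 95% interval of the difference within −1 to 1, and 223 met neither. *mthl8* and *Cyp4p2* lie far to the right near 0 on the y axis, while *Lcp4* lies high above it.

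Among the genes that were higher by like amounts and averaged at least 50 normalized counts, the largest rise was that of *mthl8*, a gene of the Methuselah-like family of G protein coupled receptors (FBgn0052475, 3L, 22428 to 26308, dm6). It had 674, 705 and 755 normalized counts in *pri*, 724, 729 and 826 in *ken*, against 14.8, 22.5 and 2.28 in the control samples. All 6 mutant samples lay close together and far above the 3 control samples, and the log2 change was 5.73 ± 0.40 (SE, edgeR adjusted p = 7.97e-05). Its difference of *pri* minus *ken* was −0.09 (95% interval −0.79 to 0.61). *asRNA:CR45600*, an antisense RNA gene (FBgn0267160, 3R, 15136985 to 15140121), had 311, 498 and 428 normalized counts in *pri*, 430.3, 465 and 427 in *ken*, against 6.11, 17.98 and 5.70 in the control samples, a log2 change of 5.38 ± 0.36 (SE, edgeR adjusted p = 6.14e-05). It overlaps *CG6912* on its own strand, and *CG6912* was higher too, at 2877, 2688 and 2888 in *pri*, 2200.2, 1933 and 2160.1 in *ken*, against 478, 429 and 672 in the control samples (2.21 on the log2 scale). Reads of these overlapping genes may not be separable, and whether reads were counted by strand is not given in the sources used here. *Cyp4p2*, *CG14715*, *CG6293*, *CG13694*, *Lip2*, *lncRNA:yar*, *w* and *CG32074*, described here with their values, also overlap a gene on the other strand.

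*Cyp4p2*, a cytochrome P450 gene (FBgn0033395, 2R, 9237512 to 9239831), had 1653, 1421 and 1688 normalized counts in *pri*, 1482, 1313 and 1394 in *ken*, against 119.6, 133 and 82.1 in the control samples. No mutant sample overlapped control, the log2 change was 3.73 ± 0.16 (SE, edgeR adjusted p = 6.48e-06), and *pri* minus *ken* was 0.19 (95% interval −0.15 to 0.52). The xanthine dehydrogenase gene *ry* (rosy, FBgn0003308, 3R, 13032528 to 13038020), whose enzyme makes uric acid and eye pigment precursors, had 3640.3, 4420.3 and 4205 normalized counts in *pri*, 4145, 4279 and 4650.0 in *ken*, against 954, 983 and 935 in the control samples, a log2 change of 2.14 ± 0.08 (SE, edgeR adjusted p = 6.48e-06). Its samples were tight within each genotype, and the mutants were alike, with a difference of −0.09 (95% interval −0.29 to 0.11). *ry* is also a marker gene of fly stocks, and the paper lists the stock of the *ken* allele with an allele of *ry*. The lipase gene *Lip1* had 1479, 1697 and 1608 normalized counts in *pri*, 1871, 2511 and 2225 in *ken*, against 469.8, 522 and 444 in the control samples, a log2 change of 1.97 ± 0.11 (SE, edgeR adjusted p = 2.8e-05). All 6 mutant samples were above control, and *ken* samples were above *pri* samples. For *Lip1* the mutants differed by an amount within −1 to 1, with *pri* minus *ken* at −0.46 (edgeR adjusted p = 0.0402, 95% interval −0.73 to −0.20). *CG2233*, *CG31076* and *CG14715*, which carry only CG numbers, changed by 3.02, 2.77 and 2.02 on the log2 scale (adjusted p = 9.91e-05, 0.000263 and 6.21e-05 from edgeR), with intervals of *pri* minus *ken* within −1 to 1. The genes named for a like rise in this and the preceding paragraph passed without each sample in turn.

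Lower by like amounts were genes of several functions. *Or71a*, an odorant receptor gene (FBgn0036474, 3L, 15076907 to 15078447), had 8.02, 14.8 and 5.23 normalized counts in *pri*, 8.23, 10.5 and 7.90 in *ken*, against 179.9, 155 and 170.0 in the control samples. No mutant sample reached a control sample, and the log2 change was −4.19 ± 0.25 (SE, edgeR adjusted p = 3.19e-05). *Or71a* overlaps *Plp* on the same strand, so its reads may not be separable. *Lcp65Af*, a larval cuticle protein gene (FBgn0020639, 3L, 6136215 to 6136791), had 177, 193 and 106 normalized counts in *pri*, 173, 82.1 and 249 in *ken*, against 2064, 1521 and 2712 in the control samples, a log2 change of −3.69 ± 0.31 (SE, edgeR adjusted p = 0.000236). The difference between the mutants was −0.09 (95% interval −0.95 to 0.78).

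The RNA helicase gene *armi* (armitage, FBgn0041164, 3L, 3461317 to 3466314), which acts in the piRNA pathway that silences transposons, had 144, 162 and 156 normalized counts in *pri*, 193, 185 and 156 in *ken*, against 818, 769 and 943 in the control samples. Its log2 change was −2.35 ± 0.10 (SE, edgeR adjusted p = 6.48e-06), with −0.21 (95% interval −0.49 to 0.08) for *pri* minus *ken*. *RpS5b* (FBgn0038277, 3R, 14900432 to 14901563), a paralog of the ribosomal protein gene *RpS5a* that is prominent in the germ line, had 3067, 3248 and 3171 normalized counts in *pri*, 2914, 2461 and 2611 in *ken*, against 7634, 7749 and 7107 in the control samples, a log2 change of −1.37 ± 0.07 (SE, edgeR adjusted p = 9.04e-06). In both genes all 6 mutant samples lay below all 3 control samples. *CG6293* had 196, 179 and 165 normalized counts in *pri*, 197, 159 and 201 in *ken*, against 1189, 1017 and 1024 in the control samples, a log2 change of −2.56 ± 0.11 (SE, edgeR adjusted p = 6.48e-06). *lncRNA:yar*, a long noncoding RNA gene on X, had 206, 223 and 222 normalized counts in *pri*, 241, 280.1 and 263 in *ken*, against 769, 734 and 734 in the control samples, a log2 change of −1.65 ± 0.08 (SE, edgeR adjusted p = 9.04e-06). Among the remaining genes that were lower and alike, *CG30458*, *CG13694*, *CG31436* and the lipase gene *Lip2* stood at −2.60, −2.21, −2.02 and −1.88 on the log2 scale (adjusted p = 0.00105, 0.000118, 0.0002 and 0.000379 from edgeR). These genes, too, passed without each sample in turn.

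**Figure D2:**
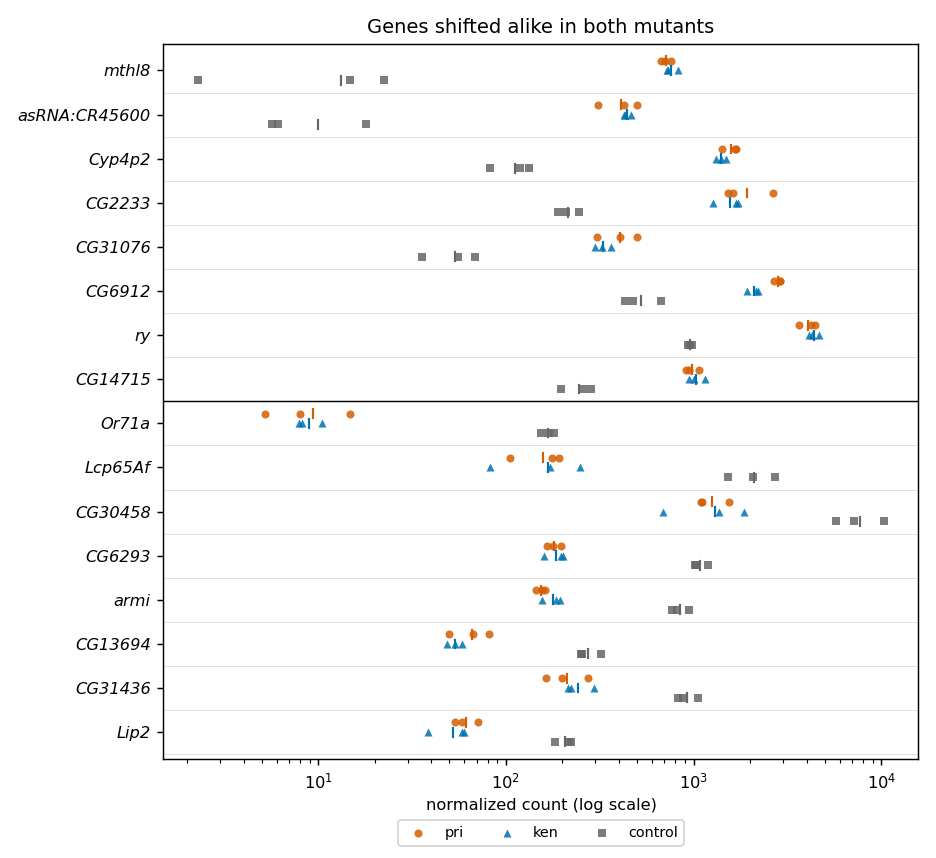
Normalized counts on a log axis of 8 genes that were higher (above the black line) and 8 that were lower (under it) in both mutants, each with an interval of *pri* minus *ken* within −1 to 1. Points are samples of *pri* mutants (circles), *ken* mutants (triangles) and control embryos (squares), and short lines are means of 3 samples. The rows were chosen for a large and like change. The *pri* and *ken* points thus sit near each other and the control points apart, as for *mthl8*, at 674 to 826 against 2.28 to 22.5. For *CG6912*, all *pri* points lie above all *ken* points.

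Of the 312 genes for which the mutants differed, 272 passed against control in 1 mutant only and 40 in both. *Lcp3*, a larval cuticle protein gene, rose in both, but further in *pri*, with 5789, 3436 and 4887 normalized counts in *pri*, 916, 208 and 456 in *ken*, against 18.3, 22.5 and 12.5 in the control samples. Its log2 change in the mean was 6.44 ± 0.57 (SE, edgeR adjusted p = 0.000314), and *pri* minus *ken* was 3.15 (adjusted p = 0.0032 from edgeR). Its neighbour *Lcp4* had 30806, 21866 and 25566 normalized counts in *pri*, 452, 341 and 1581 in *ken*, against 189, 90.8 and 125 in the control samples, with a difference of 5.04 (adjusted p = 0.00113 from edgeR). For *Lcp2*, which lies beside them, *pri* samples lay far above control and *ken* samples reached into the control range or under it. Its counts were 2389.8, 1095 and 1616 in *pri*, 37.8, 18.95 and 26.7 in *ken*, against 68.1, 33.3 and 69.6 in the control samples. The direction of its mean (1.95) was thus set by *pri*. In *ken* its log2 change was −1.01 (edgeR adjusted p = 0.229). With a replicate block, *Lcp2* did pass in *ken* against control (edgeR adjusted p = 0.00599). *Drsl4*, of the Drosomycin family of antifungal peptides, was high in *pri* as well, at 393, 234 and 232 in *pri*, 4.11, 16.8 and 23.7 in *ken*, against 8.73, 2.70 and 1.14 in the control samples. *hgo*, which encodes an enzyme of tyrosine breakdown, stood at 1513, 1358 and 1245 in *pri*, 504, 364 and 542 in *ken*, against 365, 337 and 389 in the control samples. In both genes the *ken* samples overlapped control. The call of *Drsl4* in the mean was lost without control sample 2. The *Lcp* genes of this cluster are near copies, so some of their reads may be split between them.

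*Cpr67Fa1*, a cuticle protein gene, had 58.5, 72.1 and 62.8 normalized counts in *pri*, 1095, 704 and 1488 in *ken*, against 87.3, 131 and 122 in the control samples, with *pri* minus *ken* at −4.08 (adjusted p = 0.000156 from edgeR). *CG12310*, which overlaps *Sytbeta* on the same strand, had 214, 68.9 and 213 in *pri*, 4612, 1249 and 2658 in *ken*, against 159, 122 and 148 in the control samples. The *ken* samples of both genes lay far above control, while *pri* samples lay just below it for *Cpr67Fa1* and on both sides of it for *CG12310*. Both lost their call in the mean without any 1 control sample, and *CG12310* also without *pri* sample 3 or *ken* sample 3. *TotE*, a stress-induced Turandot gene, was lower in the mean mainly through *ken*, at 66.5, 102 and 87.9 in *pri*, 0.823, 3.16 and 6.91 in *ken*, against 141, 157 and 128 in the control samples. *Reepl1* had 496, 480.1 and 477 in *pri*, 8.23, 9.48 and 33.6 in *ken*, against 403, 480.0 and 481 in the control samples, and the P450 gene *Cyp309a2* had 1825, 2056 and 1641 in *pri*, 214, 227 and 311 in *ken*, against 1924, 1924 and 1659 in the control samples. In *Reepl1* and *Cyp309a2* the *pri* samples overlapped control, and the differences of *pri* minus *ken* were 4.83 and 2.88 on the log2 scale. Lower through *pri* was *Drsl5*, another Drosomycin-like gene, at 71.1, 73.1 and 46.02 in *pri*, 773, 1077 and 726 in *ken*, against 816, 967 and 749 in the control samples.

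The mean contrast is blind to genes that moved in opposite directions. At an adjusted p under 0.05 against control in both mutants, 14 genes were higher in *pri* and lower in *ken*, 15 were lower in *pri* and higher in *ken*, and 0 of these passed in the mean contrast. *Lcp1* had 308, 130.4 and 183 normalized counts in *pri*, 5.76, 4.21 and 0.987 in *ken*, against 53.3, 53.9 and 55.9 in the control samples, and its log2 fold change was 1.93 in *pri* and −3.82 in *ken*, against a mean of −0.95 (adjusted p = 0.176 from edgeR). The 3 genotypes did not overlap. *NimC1*, a phagocytic receptor gene of hemocytes, had 289, 238 and 273 in *pri*, 67.5, 68.4 and 77.99 in *ken*, against 126, 118 and 151 in the control samples, and a mean change of 0.07. In the other direction, *CG14770* had 63.04, 107 and 113 in *pri*, 875, 1064 and 1418 in *ken*, against 376, 667 and 518 in the control samples, with a mean change of −0.68.

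**Figure D3:**
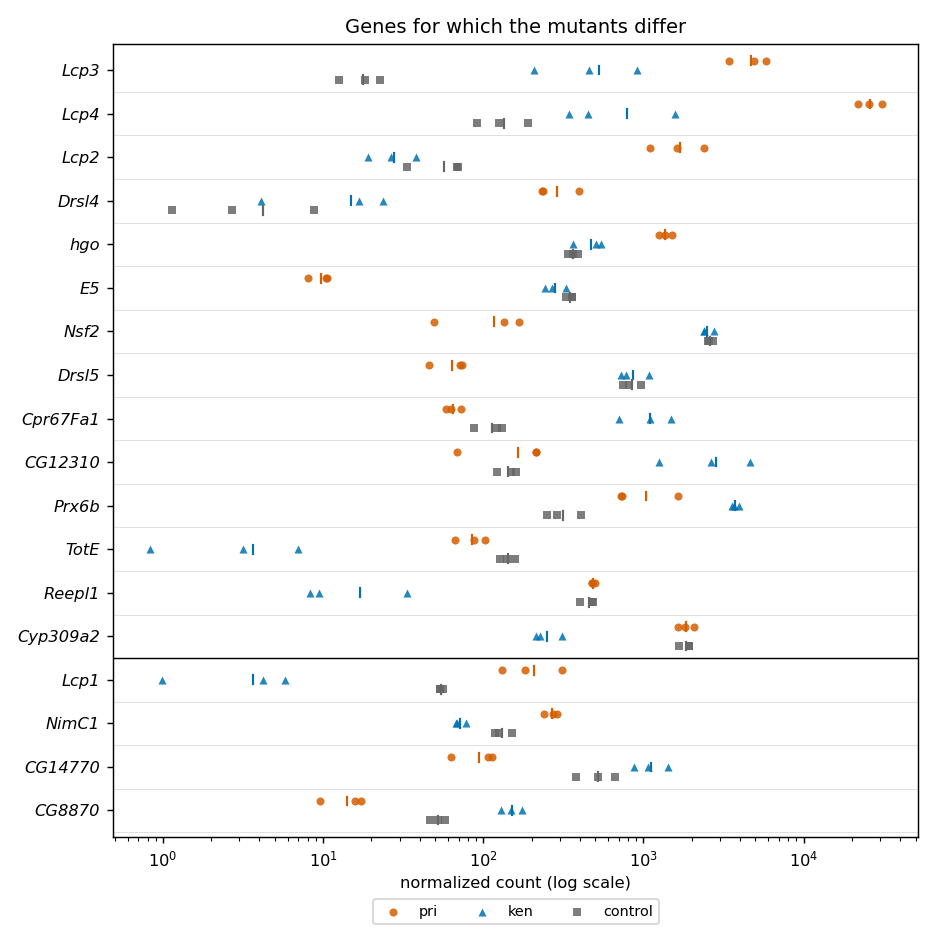
Normalized counts on a log axis of 14 genes that passed in the mean contrast while *pri* and *ken* differed (above the black line) and of 4 genes that moved in opposite directions (under it). Circles are *pri* samples, triangles *ken* samples and squares control samples, and short lines are means of 3 samples. For *Reepl1* the *pri* points lie on the control points and the *ken* points far to the left, while for *Lcp1* control lies between the mutants.

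Enzymes that modify hormones, lipids and foreign compounds moved in both directions. Of 82 cytochrome P450 genes, 5 were higher and 8 lower (6.1% and 9.76%, where 2.34% and 3.41% of all genes were). Beside *Cyp4p2*, *Cyp28a5* had 1363, 1147 and 1062 normalized counts in *pri*, 726, 617 and 787 in *ken*, against 181, 233 and 169 in the control samples, a log2 change of 2.24 ± 0.15 (SE, edgeR adjusted p = 5.75e-05). It rose in both mutants, and further in *pri*. *Cyp12e1* fell to 279, 262 and 246 in *pri*, 227, 155 and 145 in *ken*, against 444, 529 and 494 in the control samples, a change of −1.19 with no overlap of mutants and control. Without 1 control sample, 2 to 3 P450 genes were higher and 2 to 4 lower. Of 35 UDP-glycosyltransferase genes, whose enzymes attach sugars to small molecules, 4 were higher and 6 lower. *Ugt35B1* had 102, 82.7 and 71.1 normalized counts in *pri*, 44.4, 46.3 and 52.3 in *ken*, against 4.37, 3.60 and 4.56 in the control samples, a log2 change of 3.90 ± 0.24 (SE, edgeR adjusted p = 4.55e-05). Its neighbour in the family, *Ugt35D1*, had 2049, 2447 and 2194 in *pri*, 455, 658 and 698 in *ken*, against 2816, 3142 and 2893 in the control samples, a change of −1.35 that was larger in *ken*. *Ugt37D1* was lower by like amounts, at 1361, 1241 and 1232 in *pri*, 1436, 1128 and 1366 in *ken*, against 2255, 1961 and 2305 in the control samples. Without any 1 sample of *ken* or of control, 1 to 2 UDP-glycosyltransferase genes were higher, and without control sample 1, 3 were lower.

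Of 35 glutathione transferase genes, 5 were higher (14.3%) and 0 lower by edgeR (8 and 0 by DESeq2, and 12 and 3 where the p-value is left unadjusted). Their median log2 fold change was 0.32, where that of all genes was 0.01. The changes were small. *GstE6* had 3089, 3011 and 3213 normalized counts in *pri*, 5399, 4453 and 4151 in *ken*, against 2275, 2494 and 2313 in the control samples, a log2 change of 0.69 ± 0.09 (SE, edgeR adjusted p = 0.00275), and *GstE9* and *GstS1* had log2 changes of 0.94 and 0.36. Without any 1 control sample, 1 of the list was higher, and without *pri* sample 2 or 3 or *ken* sample 1 or 3, 3 were. Of 18 oxidative stress genes, 2 peroxiredoxin genes were higher. *Prx6b* had 1638, 731 and 724 normalized counts in *pri*, 3929, 3573 and 3672 in *ken*, against 249.7, 409.9 and 289.8 in the control samples, a log2 change of 2.63 ± 0.30 (SE, edgeR adjusted p = 0.00145), and lay higher in *ken* than in *pri*. *Prx6c*, at 1.70, lost its call without *ken* sample 3 or any control sample.

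Of 39 genes for midgut digestion other than proteases, 3 were higher and 9 lower (7.69% and 23.1%). The lower ones included the alpha-mannosidase genes *LManI* to *LManV* but not *LManVI*, whose enzymes trim sugars from glycoproteins in lysosomes. *LManII* had 2185, 2572 and 2909 normalized counts in *pri*, 2061, 2023 and 2243 in *ken*, against 3913, 3339 and 3804 in the control samples, a log2 change of −0.67 ± 0.10 (SE, edgeR adjusted p = 0.00458). *LManIII* had 30.9, 34.97 and 29.3 normalized counts in *pri*, 45.3, 33.7 and 57.3 in *ken*, against 139, 109 and 131 in the control samples, a change of −1.73. *LManI*, *LManIV* and *LManV* had log2 changes of −0.73, −0.92 and −0.79. Maltase genes *Mal-A2* and *Mal-B1* had −0.77 and −1.50. *Lip1* and *Lip2* moved in opposite directions, at 1.97 and −1.88. *Acp1*, which the name pattern of the list caught, is an adult cuticle protein gene and not digestive. Without control sample 1, 2 or 3, 4, 6 and 5 of the list were lower, and the count of 3 higher genes was 1 without *pri* sample 2 or 3, *ken* sample 2 or 3 or control sample 1 or 3. Of 29 digestive serine protease genes, 1 was lower by edgeR and 0 by DESeq2. The 1 gene, *Jon74E*, was under 50 normalized counts in every sample, and its call held only without *pri* sample 1 or control sample 2 and was lost without any of the other 7. The part that the high protease level of *pri* sample 1 has in these results was not tested.

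Among cuticle protein genes of the Rebers-Riddiford family, 5 of 94 were higher and 13 lower (5.32% and 13.8%). The lower set held 3 neighbours on 3L, *Cpr72Ea*, *Cpr72Eb* and *Cpr72Ec*. *Cpr72Ea* (FBgn0036617, 3L, 16362603 to 16363750) had 1.15, 1.06 and 1.05 normalized counts in *pri*, 0.823, 0 and 0 in *ken*, against 60.3, 47.6 and 54.8 in the control samples. It was thus at 1 read or none in the mutants, with an adjusted p of 2.95e-05 from edgeR. *Cpr72Ec* had 14.9, 11.7 and 11.5 normalized counts in *pri*, 17.3, 6.32 and 14.8 in *ken*, against 72.5, 79.1 and 70.7 in the control samples, a log2 change of −2.52 ± 0.26 (SE, edgeR adjusted p = 0.000844). *Cpr65Ec*, an alike gene, had 756, 616 and 693 normalized counts in *pri*, 789, 394 and 879 in *ken*, against 1932, 2240.2 and 3274 in the control samples, a log2 change of −1.85 ± 0.24 (SE, edgeR adjusted p = 0.00244), and *Acp65Aa* stood at 12.6, 13.8 and 5.23 in *pri*, 31.3, 7.37 and 31.6 in *ken*, against 146, 102 and 177 in the control samples. The higher set was *Lcp2*, *Lcp3*, *Lcp4*, *Cpr67Fa1* and *Cpr78Ca*, and in all 5 the mutants differed. Over both directions, 3 genes had an interval of *pri* minus *ken* within −1 to 1 and 10 differed. Without any 1 control sample, 3 were higher, and without control sample 2 or 3, 7 and 6 were lower. Among cuticle genes chosen by name, those that did not pass were *Cpr47Eb* (7472, 496 and 889 in *pri*, 11840.4, 2332 and 1760.3 in *ken*, against 337, 209 and 123 in the control samples, adjusted p = 0.0654 from edgeR), *Edg91* (adjusted p = 0.156) and *TwdlP* (adjusted p = 0.562). *Cpr47Eb* passed by DESeq2 (adjusted p = 0.000672) and in edgeR with a replicate block (adjusted p = 0.00209), without *pri* sample 1 (0.0342) or without *pri* sample 2 (0.0438). *Edg91* passed in edgeR with a replicate block (adjusted p = 0.0316) but not by DESeq2 (adjusted p = 0.0636). For *Cpr47Eb* the spread within each mutant was wide, and sample 1 was the highest in both.

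Of 26 Tweedle genes, another family of cuticle proteins, 2 were lower (4 without *pri* sample 1). By DESeq2, 6 were lower, and at an unadjusted p under 0.05, 8 were lower and 1 higher. *TwdlK* had 32.1, 15.9 and 21.97 normalized counts in *pri*, 16.5, 10.5 and 29.6 in *ken*, against 70.7, 76.4 and 105 in the control samples (log2 fold change −1.996) and *TwdlW* had 1654, 2339 and 1884 in *pri*, 5556, 5371 and 6645 in *ken*, against 8380.2, 13320.0 and 12719 in the control samples (−1.76), further from control in *pri*. Of 13 trichome effector genes, which act under Shavenbaby, 5 were lower (38.5%), and of these 4 differed between the mutants. By DESeq2, 9 of the 13 were lower, and at an unadjusted p under 0.05, 12 were. The median log2 fold change of this list was −1.45 in *pri* and −0.13 in *ken*. *mey*, whose zona pellucida protein sits in the matrix over the epidermal surface, had 1728, 1865 and 1837 normalized counts in *pri*, 3991, 6563 and 4777 in *ken*, against 6828, 6850.1 and 4811 in the control samples. The *ken* samples overlapped control, and the mean change of −1.02 ± 0.16 (SE, edgeR adjusted p = 0.00658) came with −1.77 in *pri* and −0.27 in *ken*. *m*, *neo* and *nyo* were likewise low in *pri*, with *ken* samples that overlapped control. *zye*, also a zona pellucida domain gene, changed by −0.81 in *pri* and −0.92 in *ken* and was the 1 effector of the 5 that was alike, with a difference of 0.12 (95% interval −0.44 to 0.67), but its call was lost without *pri* sample 2 or 3, *ken* sample 1 or any control sample. Without control sample 1 or 2, 1 and 2 effectors were lower, and without *pri* sample 3, 3 were. Of 42 chitin genes, 3 were lower (5 without *pri* sample 1), among them the chitinase gene *Cht4* (−2.18) and the chitin deacetylase gene *serp* (−0.39). By DESeq2, 2 chitin genes were higher and 8 lower, and at an unadjusted p under 0.05, 4 and 12. Of 24 tanning and pigment enzyme genes, 3 were higher. *yellow-d* had 2045, 1243 and 1283 normalized counts in *pri*, 1759, 1049.7 and 1354 in *ken*, against 554, 638 and 560.1 in the control samples, a log2 change of 1.31 ± 0.21 (SE, edgeR adjusted p = 0.00726) that was alike in both mutants. *Tbh*, which encodes the enzyme that makes octopamine, had 1.22 and lost its call without control sample 2 or 3.

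**Figure D4:**
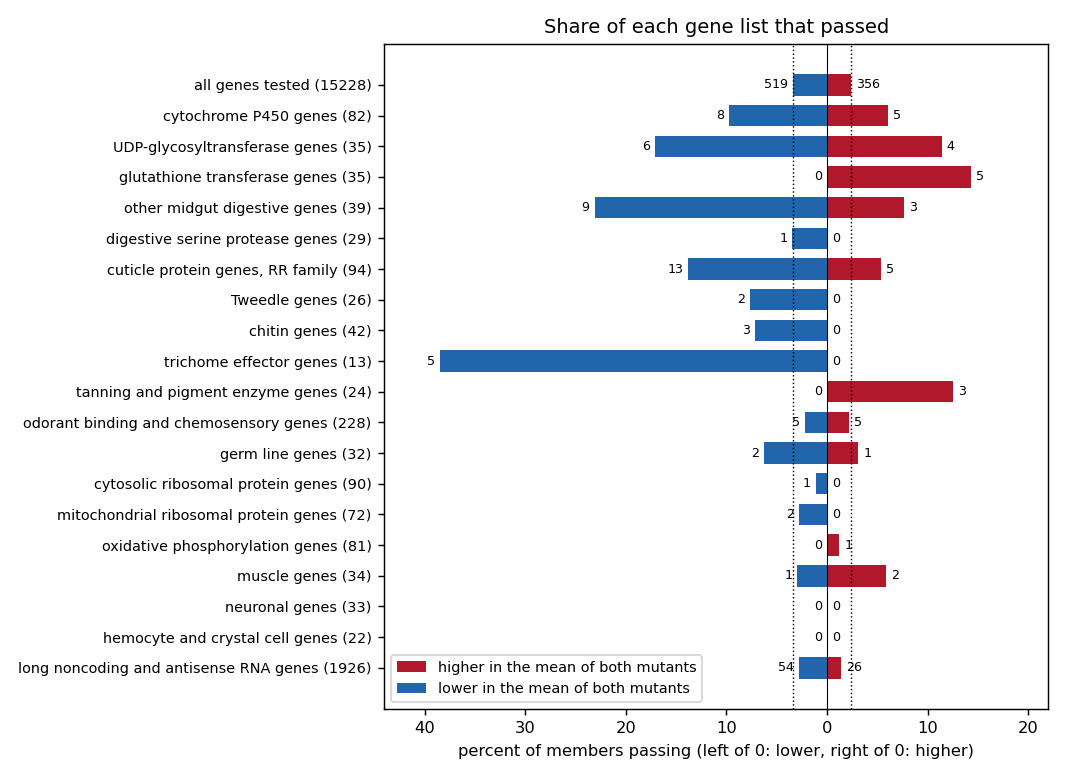
Share of the members of each gene list that passed in the mean of both mutants against control, in percent, with bars to the right of 0 for genes that were higher and to the left for genes that were lower. Numbers at the bars are counts of genes, numbers in parentheses are list sizes, and dotted lines mark the shares over all 15228 genes (2.34% higher, 3.41% lower). Glutathione transferase genes have a bar on the right only, and trichome effector genes on the left only.

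Among hormone genes, *ImpL2*, which encodes a secreted protein that binds insulin-like peptides and is induced by ecdysone, had 11772, 10386 and 10490.2 normalized counts in *pri*, 8598, 9901 and 9672 in *ken*, against 6241, 5967 and 6378 in the control samples. All 6 mutant samples were above control, with a log2 change of 0.70 ± 0.07 (SE, edgeR adjusted p = 0.000957). It was the 1 gene of 23 ecdysone response genes that passed by edgeR, where DESeq2 gave 3 higher and 2 lower. Of 16 genes for ecdysone synthesis and turnover, 3 were lower (*phtm*, *nvd* and *Cyp18a1*). *phtm*, which encodes a P450 enzyme of ecdysone synthesis, had 347, 352 and 304 in *pri*, 169, 155 and 177 in *ken*, against 339, 316 and 352 in the control samples, so the fall was that of *ken*. Without control sample 1, 1 of the 3 passed, and without control sample 2 or 3, 0 passed. Of 16 larval serum and fat body genes, 2 were higher and 1 lower. *Lsp1gamma* was higher in both mutants, at 84.8, 97.5 and 107 in *pri*, 60.9, 69.5 and 83.9 in *ken*, against 35.8, 22.5 and 23.96 in the control samples, a log2 change of 1.59 ± 0.22 (SE, edgeR adjusted p = 0.00385). The yolk protein gene *Yp3* was higher mainly through *ken*, at 21.8, 30.7 and 31.4 in *pri*, 88.04, 131 and 137 in *ken*, against 19.2, 22.5 and 22.8 in the control samples. The *pri* samples of *Yp3* overlapped control. *Lsd-2*, a perilipin gene of lipid droplets, was lower (−0.35 on the log2 scale, adjusted p = 0.0179 from edgeR), and lost its call without any 1 control sample. Of 16 cell death and p53 response genes, 3 were higher (*Xrp1*, *mre11* and *Ku80*), and 1, 1 and 0 were without control sample 1, 2 or 3, and 1 without *pri* sample 3 or *ken* sample 3. *mre11*, a DNA repair gene, had 195, 230.0 and 254 in *pri*, 783, 603 and 549.9 in *ken*, against 195, 245 and 203 in the control samples, so its rise was that of *ken*.

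Beyond *armi* and *RpS5b*, the lists of germ line and ribosomal genes hardly moved. Of 32 germ line genes, *vas* was higher, at 220.1, 218 and 224 normalized counts in *pri*, 234, 225 and 225 in *ken*, against 155, 150.1 and 183 in the control samples, a log2 change of 0.46 ± 0.11 (SE, edgeR adjusted p = 0.0392) that was lost without any sample except *pri* sample 1. *vas* overlaps *solo* on the same strand. Of 90 cytosolic ribosomal protein genes, *RpS5b* was the 1 that passed (1.11%). Of 72 mitochondrial ribosomal protein genes, *mRpL39* and *mRpS35* were lower, at −0.39 and −0.33, and *mRpL39* lost its call without control sample 3, *mRpS35* without any sample except *pri* sample 1 and *ken* sample 2. Of 81 oxidative phosphorylation genes, *ND-15* was higher (0.32), but it overlaps several genes on both strands, and its call was lost without any sample except *pri* sample 1 and *ken* sample 1. No gene passed among 33 neuronal, 12 glial and 22 hemocyte and crystal cell genes by edgeR (by DESeq2, 0 neuronal, 1 glial and 3 hemocyte genes passed, and at an unadjusted p under 0.05, 5, 1 and 6). Of 34 muscle genes, 3 passed (*TpnC41C* and *TpnC47D* higher, *TpnC73F* lower), all of them troponin C genes, and the mutants differed for each. *TpnC41C* passed without each sample in turn. *TpnC47D* lost its call without *ken* sample 1 or 3 or any control sample, and *TpnC73F* without *pri* sample 2 or 3, *ken* sample 2 or 3 or any control sample. Over all 6 mutant samples, the sums of these marker lists overlapped control. The neuronal sum was 112605 to 163977 in mutants against 110948 to 131332 in control embryos. In mutants the glial sum was 33734 to 38782, against 33552 to 36483 in control embryos, and the hemocyte sum was 114491 to 131281, against 125037 to 154770 in control embryos. Taken alone, 1 mutant lay below control in 5 sums. In *pri*, the sum over 19 tracheal genes was 105564 to 122486, against 145181 to 158560 in control embryos, and that over 32 germ line genes was 41664 to 44145, against 48702 to 49881 in control embryos. The germ line sum includes *armi* and *RpS5b*, whose falls make up much of that gap. *RpS5b* alone stood at 3067 to 3248 in *pri*, against 7107 to 7749 in control embryos. In *ken*, the sum was 12143 to 12332 over 20 gap and pair-rule genes, against 14233 to 15237 in control embryos. The hemocyte sum was 114491 to 124299 in *ken*, and the sum over 16 fat body genes was 60936 to 79331 in *ken*, against 79704 to 100527 in control embryos. Their part in the results was not tested.

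Chemosensory genes had 5 of 228 higher and 5 lower (2.19% each), near the share of all genes, but the lower ones included steep falls. Beside *Or71a*, *Or19b* had 11.5, 3.18 and 1.05 normalized counts in *pri*, 29.6, 55.8 and 33.6 in *ken*, against 203, 136 and 209.9 in the control samples, a log2 change of −3.67 ± 0.41 (SE, edgeR adjusted p = 0.00127). Its paralog *Or19a* stood at 0, 0 and 0 in *pri*, 0.823, 1.05 and 0.987 in *ken*, against 9.61, 6.29 and 4.56 in the control samples, and may share reads with it. Higher were the neighbouring gustatory receptor genes *Gr59e* and *Gr59f*. *Gr59f* had 104, 163 and 163 normalized counts in *pri*, 127, 122 and 108 in *ken*, against 56.8, 53.9 and 54.8 in the control samples, a log2 change of 1.24 ± 0.18 (SE, edgeR adjusted p = 0.00541). Without any 1 control sample, 1 to 2 chemosensory genes were higher and 3 to 5 lower, and without any 1 mutant sample except *pri* sample 1, 1 to 3 were higher.

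By gene type, 327 of 12854 protein-coding genes were higher and 462 lower (2.54% and 3.59%, where 2.34% and 3.41% of all genes were). Of 1797 noncoding RNA genes, 22 were higher and 48 lower (1.22% and 2.67%). Few of these were well measured, as 125 averaged at least 50 normalized counts. In the list of 1926 long noncoding and antisense RNA genes, 26 were higher and 54 lower (1.35% and 2.8%). These counts became 9 to 19 and 21 to 25 without any 1 control sample. Without *pri* sample 3 or *ken* sample 3, 17 were higher. By edgeR and by DESeq2, 0 tRNA and 0 small nuclear or nucleolar RNA genes passed, and at an unadjusted p under 0.05, 3 of 112 and 18 of 221 listed. Among protein-coding genes with only a CG number, 141 of 5483 were higher and 239 lower (2.57% and 4.36%), and among those with a name 186 of 7371 were higher and 223 lower (2.52% and 3.03%). By arm, 58 of 2839 genes on 2L were higher and 82 lower (2.04% and 2.89%), and 88 and 101 of 3064 on 2R (2.87% and 3.30%). On 3L, 81 and 140 of 3063 were (2.64% and 4.57%). On 3R, 77 and 115 of 3696 were (2.08% and 3.11%), and on X, 50 and 74 of 2338 (2.14% and 3.17%). These arms lay near the shares of all genes, with the highest share of lower genes on 3L. The Y chromosome, of whose 51 genes 1 averaged at least 50 normalized counts, had 6 lower by edgeR and 3 by DESeq2, and by edgeR 2 were lower without any 1 control sample, 3 without *pri* sample 2 or 3 or *ken* sample 3. *FDY*, one of them, had 180.0, 141 and 61.7 normalized counts in *pri*, 47.7, 53.7 and 45.4 in *ken*, against 548, 569 and 617 in the control samples, a log2 change of −2.87 ± 0.25 (SE, edgeR adjusted p = 0.00031). All mutant samples were below control. *FDY* was named after its values were seen.

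Passing genes also lay side by side. In 19 places, 3 or more consecutive tested genes passed in the same direction. Among these is the run of *CG11300*, *CG5532* and *sona* on 2R, inside the stretch around *ken* described below. How many such runs would form if passing genes were placed at random was not tested. One of the longest runs, on 2R, held *Prx6c*, *CG11825*, *CG33474*, *Prx6b* and *CG12896* (10418718 to 10427915). *CG11825* had 1605, 465 and 481 normalized counts in *pri*, 1065, 729 and 1101 in *ken*, against 27.1, 44.9 and 18.3 in the control samples, and its log2 fold changes were 4.79 in *pri* and 4.98 in *ken*. *CG12896* had 1026, 349 and 335 in *pri*, 2057, 2156 and 2121 in *ken*, against 77.7, 142 and 41.1 in the control samples. All 5 were higher in each mutant than in control on average, and *pri* sample 1 was the highest *pri* sample for each. On 3L, *Elo68alpha*, *CG32071*, *CG32073* and *CG12522* (11101875 to 11108732) and, after a gap, *NaPi-III*, *nol*, *CG32074* and *CG14143* (11123348 to 11135480) were lower. *CG32073* had 392, 552 and 366 normalized counts in *pri*, 87.2, 32.6 and 36.5 in *ken*, against 1619.8, 2355 and 2163 in the control samples, and *CG32074* had 143, 111 and 72.2 in *pri*, 10.7, 7.37 and 14.8 in *ken*, against 762, 772 and 1008 in the control samples. In both, *ken* lay further down than *pri*. *CG12522* had 43.6, 39.2 and 13.6 in *pri*, 50.2, 10.5 and 12.8 in *ken*, against 657, 956 and 1047 in the control samples, with the mutants mixed. On X, *Tbh*, *CG15333* and *CG2233* (7995697 to 8037517) were higher, and *CG2233* had 2651, 1613 and 1526 in *pri*, 1691, 1271 and 1719 in *ken*, against 189, 209 and 246 in the control samples. *LManIII*, *LManIV* and *LManV* (2L, 8765273 to 8776263) and the 3 *Cpr72E* genes (3L, 16362603 to 16367340) were runs of paralogs. *CG11825* and *CG33474*, *Tbh* and *CG15333*, and *CG32074* and *NaPi-III* overlap on opposite strands, and so do, each with another gene, *Cyp4p2*, *w*, *TotE*, *mre11*, *yellow-d*, *Elba1*, *bnk*, *cn*, *m*, *mRpL39* and *GstE9*, among others. The genes *CG33474*, *CG15333*, *CG32071*, *NaPi-III* and *nol* were named after their values were seen.

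**Figure D5:**
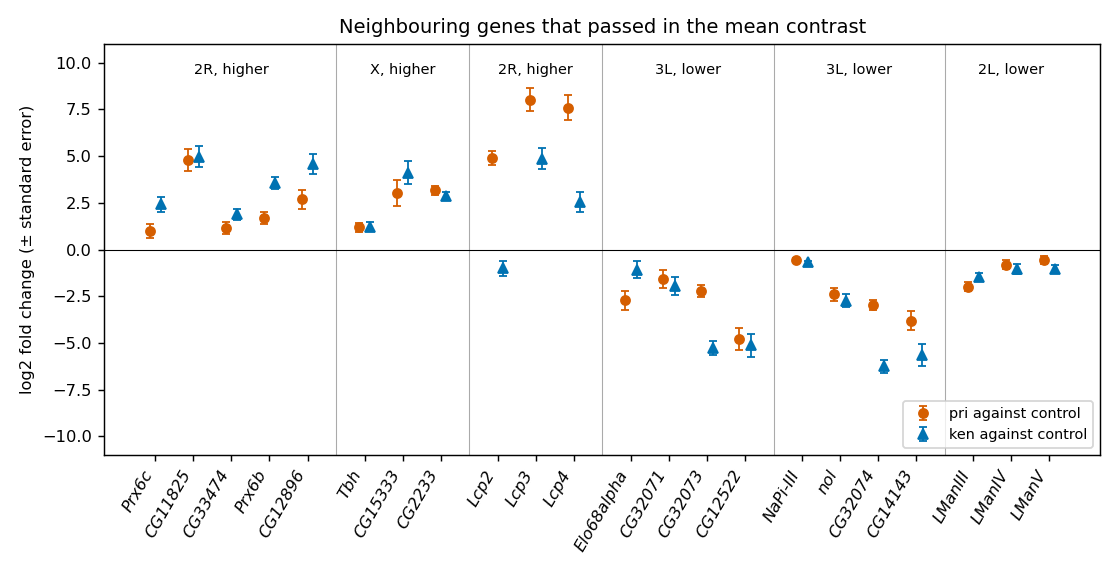
Log2 fold changes, with standard errors from the fit, of *pri* against control (circles) and *ken* against control (triangles) for 6 runs of neighbouring genes that passed in the mean contrast in the same direction, with arm and direction above each run. Both comparisons share the control samples. In the run of *Prx6c* to *CG12896* and in that of *LManIII* to *LManV* both mutants lie on the same side of 0, while *Lcp2* lies at 4.90 in *pri* and −1.01 in *ken*.

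Some of the lower genes lie at or near the mutated genes *ken* and *pri*. *ken* had 5678, 8132 and 7179.6 normalized counts in *pri*, 1197, 1184 and 1338 in *ken*, against 6957, 7431 and 6432 in the control samples, so the mean change of −1.24 came with 0.01 in *pri* and −2.49 in *ken*. Between *egl* and *DCP1* (2R, 23734904 to 23890276), a stretch around *ken*, 12 of 37 genes tested were lower in the mean and none was higher. Beside *pri* (3R, 13815279 to 13874916), 4 of 8 genes were lower and none was higher. The homeobox gene *E5* had 8.02, 10.6 and 10.5 normalized counts in *pri*, 241, 327 and 268 in *ken*, against 359.8, 359.6 and 329.7 in the control samples, and *Nsf2*, which encodes a membrane fusion factor, had 49.3, 135 and 167 in *pri*, 2374, 2739.6 and 2391 in *ken*, against 2566, 2726 and 2543 in the control samples. The *ken* samples lay just under control for *E5* and overlapped it for *Nsf2*. The bounds of these stretches were chosen after values were seen. Those beside *pri* are the outermost genes near *E5* that fell steeply in *pri*. The count of lower genes there was thus fixed in part by that choice and is no separate result. The paper does not state whether *pri S18.1* affects these genes. The level of *pri* itself was not used here.

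Marker genes of fly stocks moved too. Of 29 eye pigment and strain marker genes, *ry*, *w* and *cn* were higher, and *kar* and *m* were lower, of which 0 to 1 passed without any 1 control sample and 1 without *pri* sample 3 or *ken* sample 3. *w* (white), which encodes a transporter of eye pigment precursors, had 636, 971 and 879.7 normalized counts in *pri*, 219.7, 302 and 222 in *ken*, against 79.5, 89.9 and 76.4 in the control samples, a log2 change of 2.46 ± 0.18 (SE, edgeR adjusted p = 0.000102). The mutants differed by 1.74 (adjusted p = 0.000794 from edgeR), and both lay above every control sample. *cn* (cinnabar), a pigment enzyme gene, had 3.44, 7.42 and 4.18 normalized counts in *pri*, 18.9, 15.8 and 16.8 in *ken*, against 0.873, 0 and 0 in the control samples, where 1 control sample held a single read and the other two none. The paper lists the stock of the *ken* allele with marker alleles of *cn* and *ry*. Whether the sequenced embryos carried them is not stated. The part of stock background in these and the other genes was not tested.

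For a set of lower genes, 1 control sample was like the mutants. *Elba1*, which encodes an insulator factor of the early embryo, had 1.15, 5.30 and 2.09 normalized counts in *pri*, 0, 1.05 and 0 in *ken*, against 271, 619 and 6.84 in the control samples. *bnk*, which acts when the blastoderm forms cells, had 1.15, 5.30 and 1.05 in *pri*, 2.47, 1.05 and 3.95 in *ken*, against 268, 958 and 7.99 in the control samples. *halo*, also of the blastoderm, had 6.88, 29.7 and 30.3 in *pri*, 18.9, 12.6 and 8.89 in *ken*, against 294, 536 and 35.4 in the control samples. *CG14014* had 3.44, 12.7 and 15.7 in *pri*, 3.29, 4.21 and 0 in *ken*, against 152, 360.5 and 15.97 in the control samples. In each of the 4 genes, control samples 1 and 2 were high and control sample 3 was near the mutants. Among all lower genes, 37 had control sample 3 inside the range of the mutant samples and the other 2 control samples above it. The 4 genes are not among these 37, since for each of them control sample 3 lay above the highest mutant sample. The 37 mix genes such as *CG7271*, at 216, 536 and 3.42 in the control samples, with genes such as *GalT1*, at 553, 555 and 489. The 37 are therefore not a count of genes with the pattern of the 4. With control samples 1 and 2 both left out, a step added after seeing the data, 23 genes were higher and 45 lower, and 67 of these 68 were among the 875. Whether control samples 1 and 2 held some younger embryos was not tested.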

How the data were processed

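Poly(A) RNA of whole stage 16 embryos was measured in 3 samples each of *pri* mutants, *ken* mutants and control embryos. The authors aligned reads with STAR (2.6.1d) to dm6 with a FlyBase annotation and deposited raw counts per gene for genes with a total above 1. The deposited normalized counts, a signal in which the authors divided counts by DESeq2 (1.32.0) size factors, equalled counts over 1 factor per sample to a largest relative difference of 5.12e-10, and served only to show levels. Mouse genome builds also stand in the submitters' processing notes, but 15159 of 15228 gene IDs matched the fly annotation.

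Counts were fitted with edgeR (4.0.16, limma 3.58.1, R 4.3.3) by quasi-likelihood over all 9 samples with TMM scaling, no filter and genotype as the only factor. The contrast was the average of the *pri* and *ken* means minus the control mean. *pri*, *ken* and *pri* minus *ken* were further contrasts of the same fit, and the 2 against control share the control samples. P-values were adjusted by Benjamini-Hochberg over 15228 genes, and a gene passed at an adjusted p under 0.05. Standard errors are the log2 fold change over the root of F. DESeq2 (1.42.0), other scalings and filters, a replicate block and left-out samples were alternatives. The deviations of same-numbered samples from their group means correlated over 11295 genes at 0.552, 0.526 and 0.118 between *pri* and *ken*, 0.345, 0.467 and 0.175 between *ken* and control, and 0.433, 0.545 and −0.111 between *pri* and control. Each was over 0.1 in the first 2 comparisons but not in the third. Samples of unlike numbers correlated too, at 0.36 for *pri* sample 3 with *ken* sample 2 and 0.396 for *pri* sample 3 with control sample 2. The replicate block was fitted over all 9 samples. By these values the numbers paired samples 1 and 2 across genotypes, and sample 3 weakly or not at all. This rests on the data, since no source says what a number marks. The fit was tested on simulated data. Depth of 21048610 to 28859395 counts leaves low genes the least precise.

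The contrast and the gene lists were chosen with earlier results of these data known. Of 64 lists, 9 needed product names and were not used, and 54 held at least 3 genes. Genes named were the largest changes in each direction with a mean of at least 50 normalized counts and no overlap, the smallest p-values, the largest like changes, the largest differences between the mutants, opposite changes, up to 3 passing members per list, and *ken*, *w*, *cn*, *ry* and 6 cuticle genes. Other genes in the text were chosen after their values were seen.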

Additional observations from a re-analysis of the deposited data

Results flagged for a closer look

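The mutants differed from each other for 312 of the genes that passed in the mean contrast, by the test of *pri* minus *ken* in the edgeR fit. A further 12 genes with a mean of at least 50 normalized counts passed against control in opposite directions, and the same test gave their log2 differences of *pri* minus *ken*. Higher in *pri* were *Lcp1* (5.75), *Sid* (2.22), *CG31668* (2.098), *Cpr49Ac* (2.07), *EMC2A* (2.06), which encodes a subunit of the ER membrane complex, and *NimC1* (1.90). Higher in *ken* were *CG14770* (−3.56), *lncRNA:CR44922* (−3.41), *CG8870* (−3.40), *CG7031* (−2.81), *CG12540* (−2.65) and *CG45095* (−2.49). *Sid* had 312, 226 and 252 normalized counts in *pri*, 58.4, 47.4 and 63.2 in *ken*, against 117, 102 and 119.8 in the control samples, and *CG7031* had 21.8, 32.9 and 26.1 in *pri*, 209.8, 114 and 247 in *ken*, against 55.01, 94.4 and 55.9 in the control samples. The 12 genes did not pass in the mean contrast.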

How the results depend on the processing

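The count of higher genes (356) was 645 by DESeq2, 104 with all 6 mutant samples as 1 group, 155 with a log2 fold change beyond 1, 696 without *pri* sample 1 and *ken* sample 1 and 23 without control samples 1 and 2. The count of lower genes (519) was 153 with 1 group, 276 beyond a log2 fold change of 1, and 999 and 45 with those samples left out. The count that differed between the mutants (312) was 534 by DESeq2, 147 beyond a log2 fold change of 1 and 22 without control samples 1 and 2. The count alike (406) was 763 by DESeq2, 73 beyond a log2 fold change of 1, 991 without *pri* sample 1 and *ken* sample 1 and 27 without control samples 1 and 2. Leaving out each sample in turn gave 130 to 445 higher, 238 to 610 lower, 136 to 338 that differed and 135 to 541 alike. With a replicate block, 546 genes were higher, 785 lower, 537 differed and 678 were alike. Within the 875 genes, it gave 357 that differed and 426 alike. Single genes whose mean change crossed 0 had not passed. With 1 group, they were *CG12540* (0.476), *CG14770* (0.221), *CG31668* (0.285), *CG8870* (0.663) and *Lcp1* (0.948). With the block, it was *CG45095* (−0.029). Without *pri* sample 1 and *ken* sample 1, they were *CG12540* (0.114) and *TwdlP* (−0.142), without control samples 1 and 2 *CG12540* (0.322) and *NimC1* (−0.122), and without sample 1 of each genotype *CG12540* (0.225), *CG7031* (−0.0526) and *TwdlP* (−0.048). Leaving out single samples gave −0.254 to 0.0496 for *CG12540*, −0.185 to 0.140 for *CG31668*, −0.161 to 0.114 for *CG45095*, −0.073 to 0.368 for *CG7031* and −0.0029 to 0.173 for *NimC1*. No gene that passed changed sign under any of these settings except 8 without control samples 1 and 2. Of 143 named genes, 128 passed and 47 did so in every setting that keeps the threshold. The other scalings moved the median of all genes to at most 0.03 on the log2 scale. Settings that leave out 2 samples were chosen after seeing the data. The threshold on size selects fewer genes by construction, and the cause of the other moves was not tested. Without control samples 1 and 2, the lone control sample is assumed to vary like the mutants.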

Other observations

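Runs of neighbours beyond those described above held further genes. On 3R, *MED7*, *Cap-H2* and *TfIIFbeta* (10760071 to 10767804), which encode a Mediator subunit, a condensin II subunit and a general transcription factor subunit, were lower. *Cap-H2* had 1128, 1242 and 1160.0 normalized counts in *pri*, 1211, 1281 and 1383 in *ken*, against 2113, 2179 and 2317 in the control samples, a log2 change of −0.84 ± 0.07 (SE, edgeR adjusted p = 0.00017), with no overlap between mutants and control and a difference of *pri* minus *ken* of −0.13 (95% interval −0.31 to 0.05). *MED7* had 494, 509 and 542 in *pri*, 469, 576 and 533 in *ken*, against 849, 931 and 929 in the control samples, a log2 fold change of −0.80. All 3 passed without each sample in turn, and the mutants were alike in each. On 3L, *CG15022*, *CG15023* and *CG15024* (4459193 to 4463823) were lower, and their log2 fold changes were −3.33 in *pri* and −0.17 in *ken* for *CG15022* and −2.05 in *pri* and −2.58 in *ken* for *CG15024*. *CG15022* had 1128, 2486 and 1902 in *pri*, 13798, 16451 and 19183 in *ken*, against 14121, 21609 and 19705 in the control samples, so that its fall was that of *pri*. On 2L, *CG13795*, *CG13796*, *CG31904*, *Acp1* and *CG7214* (7723045 to 7744839) were lower, and *CG7214* had 73.4, 18.02 and 33.5 in *pri*, 23.04, 10.5 and 18.8 in *ken*, against 253, 150.1 and 282 in the control samples. These genes were named after their values were seen.

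Of 25 Osiris genes, a family of the apical epidermis and of cuticle-forming cells, *Osi2* was higher, at 11949, 6424 and 9796 normalized counts in *pri*, 7820.1, 4708 and 6646 in *ken*, against 3380.2, 4224 and 3542 in the control samples, a log2 change of 1.06 ± 0.22 (SE, edgeR adjusted p = 0.022), and lost its call without *ken* sample 3 or any control sample. By edgeR 0 were lower and by DESeq2 5 were, and at an unadjusted p under 0.05, 11 were. *pri* and *ken* differed for 13 of the 25.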
